A study of Mus musculus with 15 samples.

Results

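Carbonic anhydrases are zinc enzymes that turn carbon dioxide and water into bicarbonate and a proton, and back. In the brain they set the pH inside and outside cells and supply bicarbonate to its transporters and to GABA-gated channels. Members differ in where they act: Car6 is secreted, Car2 and Car7 are cytosolic, Car4 is held on the outer cell surface by a lipid anchor, Car12 and Car14 span the membrane, and Car8, Car10 and Car11 are related proteins without the enzyme activity. These 9 genes are described here in mouse olfactory bulbs with raised, absent or ordinary signalling through CRHR1, the receptor of the stress peptide corticotropin-releasing hormone (CRH). The genes were picked by name, and all 14 array probes that carry one of these names were taken, of 46782 genes and 55681 probes on the array. Car6 was picked because it was much higher with active CRHR1 in these same arrays, and the other members serve as contrast. The Car6 values with active CRHR1 are therefore a description, with no test.

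RNA of whole bulbs from 15 male mice aged 6 to 8 weeks was hybridised to 1-colour Agilent arrays, 1 array per mouse, 2 weeks after injection of 500 nL of an adeno-associated virus. With this flex design the cargo is switched on by Cre recombinase. The active CRHR1 group was 5 C57Bl/6 mice with Cre driven from the CRHR1 gene, which in the bulb marks granule cells, and a virus that carries a receptor form, (CA)CRHR, which signals without ligand. The knockout group was 5 129S4/SvJae mice of genotype CRHR1-/- given a virus with GFP. The Cre GFP group was 5 C57Bl/6 mice that had the same Cre, received GFP, and served as pseudo-wild type. All groups had virus in the bulb, none was an uninjected mouse, and the titles name no Cre for the knockout. In comparisons with the knockout, the missing receptor, the 129S4/SvJae strain and the Cre cannot be told apart.

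All active CRHR1 mice were on slide 2 with Cre GFP mice 4 and 5, and all knockout mice on slide 1 with the remaining 3 Cre GFP mice. Array brightness, taken as the 75th percentile of the signal, was 663 to 1172 units, and 58.8% to 66.9% of probes per array read well above background. Levels below are log2 signals minus that percentile, so 0 is the array's own 75th percentile. Changes are differences of mean levels on the log2 scale, ± SE, with the Benjamini-Hochberg adjusted p of limma over 27457 genes. Probes differ in how they bind, so levels are compared between mice and not between genes. The Crhr1 probe read 3.73 ± 0.12 with active CRHR1, 3.16 ± 0.12 in the knockout and 3.63 ± 0.18 in Cre GFP (SD, n = 5 each), and whether it lies inside the deleted stretch, or in the coding sequence that the virus carries, was not determined. Crh, the ligand, fell by 0.85 ± 0.18 with active CRHR1 against Cre GFP (adjusted p = 0.00981). Its levels were 1.58 ± 0.18 with active CRHR1, 1.79 ± 0.28 in the knockout and 2.43 ± 0.39 in Cre GFP (SD, n = 5 each). The knockout mean was thus also below that of Cre GFP. Of marker lists for bulb cells, 14 of 14 granule cell genes and 9 of 9 mitral and tufted cell genes were well above background in at least 4 of 5 mice of every group.

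The probes that the results turn on are shown so that a reader can see what was bound. They are given as the array's own letters, 5′ to 3′, whole for 3 of them and as the first 30 bases for the other two. Coordinates are mm9.
Car6, chr4:149561160-149561219, minus strand: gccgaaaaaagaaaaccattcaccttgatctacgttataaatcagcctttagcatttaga
Car7, chr8:107072897-107072956, plus strand: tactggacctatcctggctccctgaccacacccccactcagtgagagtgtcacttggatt
Car2, chr3:14900206-14900265, plus strand, first 30 bases: cctctcatccgttgtgcttactaacaaaat
Car4, chr11:84779487-84779546, plus strand, first 30 bases: tgacctcctccccagccccccaattaaatg
Car4, second probe, chr11:84777667-84777726, plus strand: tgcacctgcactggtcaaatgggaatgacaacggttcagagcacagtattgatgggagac

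Car6 was bright with active CRHR1 and at background in the other groups. It is the secreted form, known from saliva and milk, and in mouse cells a second, stress-induced form has been described that depends on the transcription factor CHOP. With active CRHR1 its processed signal was 703, 479, 525, 473 and 336 units in mice 1 to 5. In the knockout it was 3.60, 3.91, 5.26, 3.24 and 2.89 units, and in Cre GFP 2.97, 7.73, 16, 3.98 and 3.53 units. The probe was well above background in 5 of 5 active CRHR1 mice, 0 of 5 knockouts and 0 of 5 Cre GFP mice, and the active CRHR1 mice did not overlap with either other group.

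On the log2 scale Car6 had a level of -1.06 ± 0.33 with active CRHR1 (SD, n = 5). Because it stood at background elsewhere, the size of the difference is a lower bound: the mean against, per dim array, whichever is higher of the Car6 signal and the faintest signal that any probe had while well above background. In the processed signal used here, Car6 was at least 26.8-fold higher with active CRHR1 than in the knockout. It was at least 31.0-fold higher than in Cre GFP. On slide 2 alone, where Cre GFP mice 4 and 5 shared the slide with all active CRHR1 mice, the fitted change was 6.98, against 6.35 over both slides. With normexp background correction, which lifts dim spots and here added an offset of 50, it was 2.89 against Cre GFP and 2.82 against the knockout. Both lie below the bounds, which are 4.95 and 4.74 on the log2 scale. The bounds thus hold only for the processed signal, and the fitted size depends on the treatment of the dim arrays. The knockout and Cre GFP could not be compared for Car6, since 0 of 10 mice had a signal well above background.

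**Figure D1:**
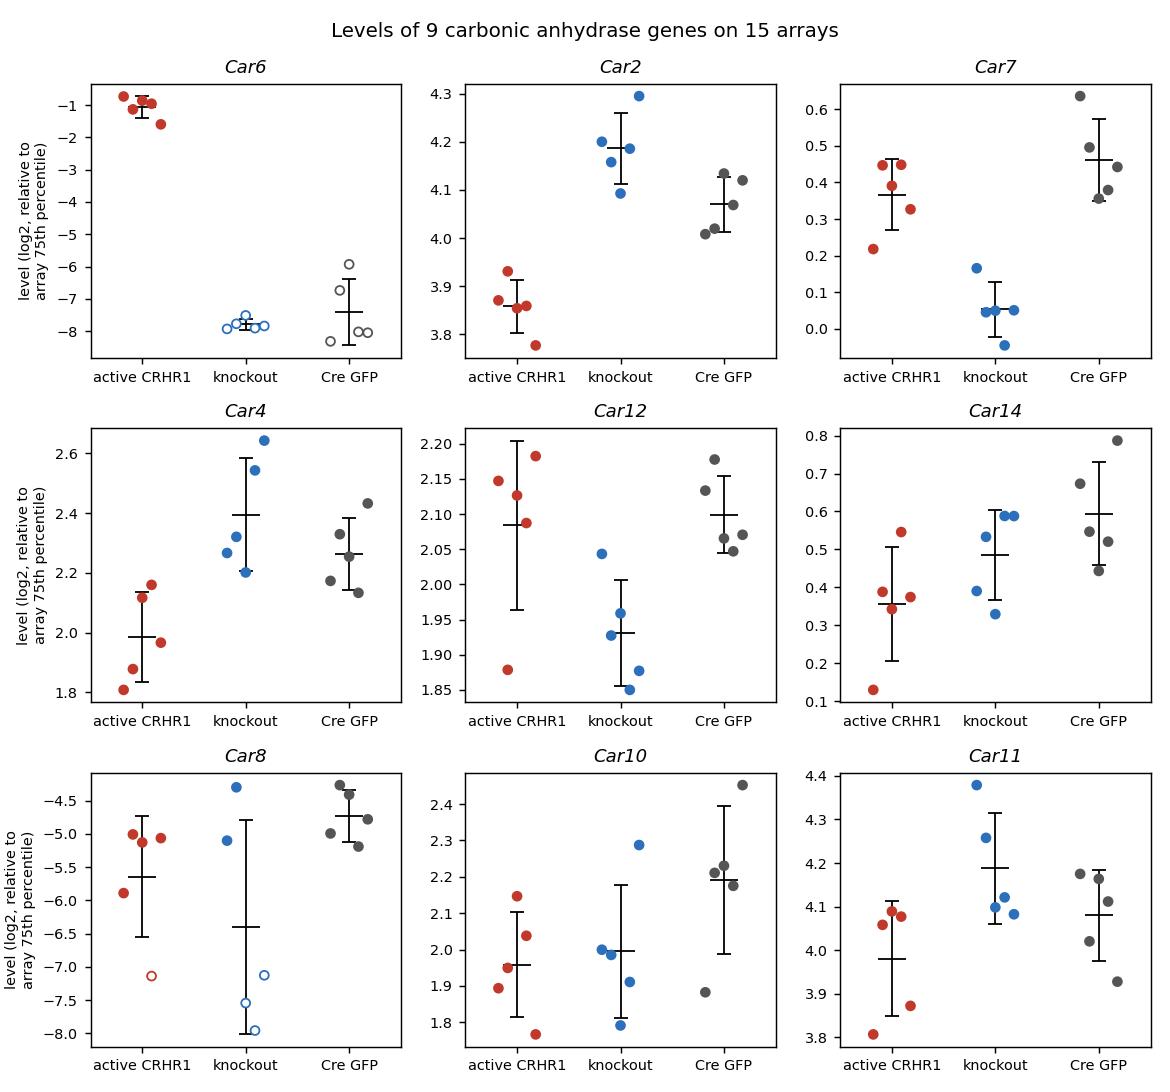
Level of each of the 9 carbonic anhydrase genes (log2 signal relative to the array's 75th percentile, vertical axis, a separate scale per gene) in the active CRHR1, knockout and Cre GFP groups. Points are the 5 mice of a group, open where the probe was not well above background, and bars give the mean ± SD. Car6 lies between -1.60 and -0.74 with active CRHR1 and at -5.93 or lower in the 10 other mice, while group means of Car2, Car7 and Car4 differ by at most 0.41.

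The Car6 promoter is shown because the gene was at background in 10 mice and bright in 5. The Car6 gene lies at chr4:150187015-150201135 in GRCm38.p6 on the minus strand. RefSeq's 250 bases before its start, chr4:150201136-150201385, follow in the direction of transcription, with the 1 motif found in capitals.
Car6 promoter: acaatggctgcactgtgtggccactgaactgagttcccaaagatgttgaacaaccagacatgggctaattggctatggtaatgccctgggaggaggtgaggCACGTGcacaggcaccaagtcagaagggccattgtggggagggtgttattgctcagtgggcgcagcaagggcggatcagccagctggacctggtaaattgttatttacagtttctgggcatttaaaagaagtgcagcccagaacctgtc
Motifs were searched on both strands of the window from 250 bases before to 50 after the start. CACGTG, the E-box, matched once at position 102 from the 5′ end and is held by 7.15% of 32851 promoters of this length. The hypoxia core ACGTG matched inside it on either strand, and 19.6% of the promoters hold it. The letters TGACG (CRE half-site, 20.8% of promoters), TGATGNAA (C/EBP-ATF element, 3.97%), GAAA repeated after any 2 bases (interferon-stimulated response element, 3.44%) and TTCNNNGAA (gamma-activated site, 8.30%) were not in this window. For Car6 no other window was searched. Whether the stress-induced form starts at this place, and which form the Car6 probe binds, was not determined. Promoters were found for 7 of the 9 genes. Among the others, TGATGNAA stood in both Car11 windows, ACGTG in the Car4 and Car14 windows and 1 of 2 Car10 windows, and the CRE half-site in 1 of 3 Car7 windows and 1 of 2 Car10 windows.

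The other members moved far less. Of the 8 members other than Car6, 0 rose and 1 fell with active CRHR1 against Cre GFP in limma (0 higher and 3 lower at an unadjusted p under 0.05), beside 3.9% of all genes called higher, 4.56% lower and 8.45% in either direction. All 8 had a negative change, with a median of -0.22, while the median of all genes was -0.06. That all were negative depended on the processing. Car12 changed by 0.06 with quantile normalization and by 0.03 with slide as a block, and Car11 by -0.00098 with quantile normalization. In the knockout against Cre GFP 0 of the same 8 rose and 1 fell, beside 1.96% of all genes called higher, 1.38% lower and 3.33% in either direction. Of the 8 changes 5 were negative, with a median of -0.14 against 0.0050 for all genes. Against the knockout, 1 of the 8 rose and 2 fell with active CRHR1, beside 9.43% of all genes called higher, 16.3% lower and 25.7% in either direction, with a median of -0.08 against -0.07. The comparisons share samples, so their calls are not separate evidence.

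Car2, the abundant cytosolic form of oligodendrocytes, was lower with active CRHR1. Its levels were 3.87, 3.93, 3.85, 3.86 and 3.78 with active CRHR1, 4.2, 4.16, 4.09, 4.19 and 4.30 in the knockout, and 4.01, 4.02, 4.13, 4.07 and 4.12 in Cre GFP. The 5 active CRHR1 mice lay below all 10 others, while the knockout and Cre GFP overlapped. The fall was 0.33 ± 0.05 against the knockout (adjusted p = 0.00141) and 0.21 ± 0.05 against Cre GFP (adjusted p = 0.0271). The change in the knockout against Cre GFP was 0.12 ± 0.05 (adjusted p = 0.248, 95% interval 0.0010 to 0.23). With slide as a block the changes of -0.37 and -0.24 with active CRHR1 kept their size but not the call (adjusted p = 0.0629 and 0.0942), and the call against Cre GFP also ended with quantile normalization (-0.11) and without any 1 of 7 mice (Cre GFP 3, 4 or 5, active CRHR1 1, 3, 4 or 5; adjusted p up to 0.0744).

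Oligodendrocyte markers were set beside Car2. Of 14, 0 rose and 8 fell with active CRHR1 against the knockout, among them Mbp, myelin basic protein, by 0.64 ± 0.10 (adjusted p = 0.00126), a call that ended with slide as a block. Against Cre GFP 0 of the 14 rose and 2 fell, among them Mobp, a myelin-associated protein, by 0.82 ± 0.22. The shares of all genes called lower were 16.3% against the knockout and 4.56% against Cre GFP. Mobp averaged 3.60 in the knockout and 3.84 in Cre GFP, the opposite order to Car2. Against Cre GFP the list median was -0.24, beside -0.25 for granule cell and -0.21 for mitral and tufted cell markers. Against the knockout these medians were -0.47, -0.11 and -0.19. The summed signal of the 14 oligodendrocyte genes was 417 to 481 with active CRHR1, 496 to 673 in the knockout and 457 to 560 in Cre GFP, in multiples of the array's 75th percentile. All 14 were well above background in at least 4 of 5 mice of every group, and the fall of Mobp against Cre GFP lost its call on slide 2 alone (adjusted p = 0.0658). In whole bulbs fewer cells of a type and less RNA per cell cannot be told apart, and the part of these markers in the Car2 result was not tested.

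Car7, the cytosolic form of neurons that supplies bicarbonate to GABA-A receptors, was lower in the knockout. Its levels were 0.22, 0.45, 0.39, 0.45 and 0.33 with active CRHR1, 0.17, 0.05, 0.05, -0.04 and 0.05 in the knockout, and 0.64, 0.50, 0.36, 0.38 and 0.44 in Cre GFP. Every knockout mouse lay below the 10 others. Car7 fell by 0.41 ± 0.07 in the knockout against Cre GFP (adjusted p = 0.00698) and was 0.31 ± 0.07 higher with active CRHR1 than in the knockout (adjusted p = 0.00702). Active CRHR1 and Cre GFP overlapped, with a change of -0.10 ± 0.07 (adjusted p = 0.382, 95% interval -0.24 to 0.05).

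The fall of Car7 in the knockout held without any 1 of the 15 mice (-0.44 to -0.36, adjusted p up to 0.0226) and with slide as a block (-0.44, adjusted p = 0.0183). On slide 1 alone, with 3 Cre GFP mice, the change missed the threshold (adjusted p = 0.107). Its size of -0.44 is the same estimate as with the slide block, since all knockout mice were on slide 1, and not a separate check. The rise against the knockout lost its call with slide as a block (0.40, adjusted p = 0.0951) and in the authors' scaled values (0.27, adjusted p = 0.0650). Of 14 granule cell markers 2 fell and 0 rose in the knockout against Cre GFP, beside 1.38% of all genes called lower. They were Crhr1, the deleted gene itself, and Etv1, a transcription factor of bulb interneurons, by 0.34 ± 0.07. The list's summed signal was 334 to 390 with active CRHR1, 365 to 423 in the knockout and 405 to 447 in Cre GFP. This sum reached its lowest values with active CRHR1, where it overlapped with the knockout. With active CRHR1 against Cre GFP 3 of the 14 fell and 0 rose, beside 4.56% of all genes called lower. The part of these markers in the Car7 result was not tested.

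Among the membrane forms, Car4 differed in 1 comparison on 1 of its probes. Car4 is found on brain capillaries and glia. Its levels were 1.81, 1.88, 2.12, 2.16 and 1.97 with active CRHR1, 2.27, 2.32, 2.20, 2.54 and 2.64 in the knockout, and 2.17, 2.33, 2.25, 2.13 and 2.43 in Cre GFP. The active CRHR1 mice lay below all knockout mice and overlapped with Cre GFP. The fall was 0.41 ± 0.10 against the knockout (adjusted p = 0.0119), while against Cre GFP its change was -0.28 ± 0.10 (adjusted p = 0.0953).

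The second Car4 probe, which lies in the same gene upstream of the first, gave -0.08 ± 0.10 against the knockout and 0.0035 ± 0.10 against Cre GFP, so that the probes disagreed. The call of the first probe ended with slide as a block (-0.44, adjusted p = 0.179) and without knockout mice 2 and 5 together (-0.35, adjusted p = 0.0558). Of 15 endothelial and mural cell markers 1 rose and 3 fell with active CRHR1 against the knockout, beside 9.43% of all genes called higher and 16.3% lower. These markers had a summed signal of 65.4 to 89.0 with active CRHR1 and 63.1 to 78.5 in the knockout. Their part in the Car4 result was not tested.

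Car12 and Car14, the transmembrane forms with their active site outside the cell, passed no test with the main processing. Car12 had levels of 2.15, 1.88, 2.13, 2.09 and 2.18 with active CRHR1, 2.04, 1.93, 1.96, 1.85 and 1.88 in the knockout, and 2.13, 2.18, 2.07, 2.05 and 2.07 in Cre GFP. The knockout mice lay just below all Cre GFP mice, but the change of -0.17 ± 0.06 missed the threshold (adjusted p = 0.170). With active CRHR1 the change against Cre GFP was -0.01 (95% interval -0.15 to 0.12). Car14, which is found on neurons, averaged 0.36 ± 0.15 with active CRHR1, 0.49 ± 0.12 in the knockout and 0.59 ± 0.14 in Cre GFP (SD, n = 5 each). All 3 groups overlapped, and the change with active CRHR1 against Cre GFP was -0.24 ± 0.09 (adjusted p = 0.106, 95% interval -0.43 to -0.05).

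The members without enzyme activity passed no test with the main processing either. Car8, which binds the IP3 receptor and is known from cerebellar Purkinje cells, was dim: its brighter probe was well above background in 4 of 5 active CRHR1 mice, 2 of 5 knockouts and 5 of 5 Cre GFP mice. Its levels were -5.89, -5.01, -5.13, -7.14 and -5.06 with active CRHR1, -5.10, -4.30, -7.54, -7.96 and -7.13 in the knockout, and -4.99, -4.26, -4.41, -5.19 and -4.78 in Cre GFP. The knockout thus held both the faintest mice and some as bright as Cre GFP, and its change of -1.68 ± 0.64 missed the threshold (adjusted p = 0.164). The second Car8 probe was above background in the same numbers of mice and gave -1.51 ± 0.83.

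Car10, a secreted ligand of neurexins, averaged 1.96 ± 0.14 with active CRHR1, 1.99 ± 0.18 in the knockout and 2.19 ± 0.20 in Cre GFP (SD, n = 5 each). Its changes against Cre GFP were -0.23 ± 0.11 with active CRHR1 and -0.20 ± 0.11 in the knockout (adjusted p = 0.199 and 0.351). Of its 4 probes 3 were above background in all 15 mice and did not move together: for active CRHR1 against Cre GFP the 2 dimmer ones gave 0.45 ± 0.28 and -0.30 ± 0.20, and against the knockout 0.50 ± 0.28 and -0.75 ± 0.20, where the brightest gave -0.04. Car11, the close relative of Car10, averaged 3.98 ± 0.13 with active CRHR1, 4.19 ± 0.13 in the knockout and 4.08 ± 0.10 in Cre GFP. The groups overlapped, and its changes against Cre GFP were -0.10 ± 0.08 with active CRHR1 and 0.11 ± 0.08 in the knockout (adjusted p = 0.450 and 0.489).

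The remaining 9 genes of the family were tested beside these members. With active CRHR1 against Cre GFP 1 of 9 rose and 0 fell, in the knockout against Cre GFP 1 fell and 0 rose, and with active CRHR1 against the knockout 1 rose and 3 fell. The shares of all genes called in either direction were 8.45%, 3.33% and 25.7% in the same order. Car9, a membrane form best known as a hypoxia-induced gene, had levels of -4.09, -4.42, -4.40, -3.82 and -4.16 with active CRHR1, -4.76, -4.69, -4.40, -4.55 and -4.07 in the knockout, and -5.13, -4.58, -5.50, -6.06 and -5.34 in Cre GFP. Active CRHR1 and Cre GFP did not overlap, and Car9 rose by 1.14 ± 0.22 (adjusted p = 0.00675). The knockout overlapped with both, and its change against Cre GFP was 0.83 ± 0.22 (adjusted p = 0.0609).

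Car9 was a dim gene, above background in 4 of 5 Cre GFP mice and in all 10 others. Its call with active CRHR1 held with slide as a block (1.52, adjusted p = 0.00695) and without any 1 of the mice, and was lost with normexp (0.31, adjusted p = 0.0816). Car15, a lipid-anchored form, read 0.57, 0.53, 0.34, 0.54 and 0.52 in the knockout and 0.93, 0.86, 1.18, 1.15 and 0.85 in Cre GFP. These did not overlap, and the fall of 0.49 ± 0.08 (adjusted p = 0.00653) was a call lost on slide 1 alone (adjusted p = 0.107). With active CRHR1 against the knockout, Car15 rose by 0.29 ± 0.08, while Car3, the form of muscle and fat, fell by 0.76 ± 0.18, the mitochondrial Car5b by 0.54 ± 0.14, and Ptprg, a receptor phosphatase with a carbonic anhydrase-like domain, by 0.49 ± 0.11. All 4 of these calls ended with slide as a block (adjusted p from 0.0537 to 0.258).

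**Figure D2:**
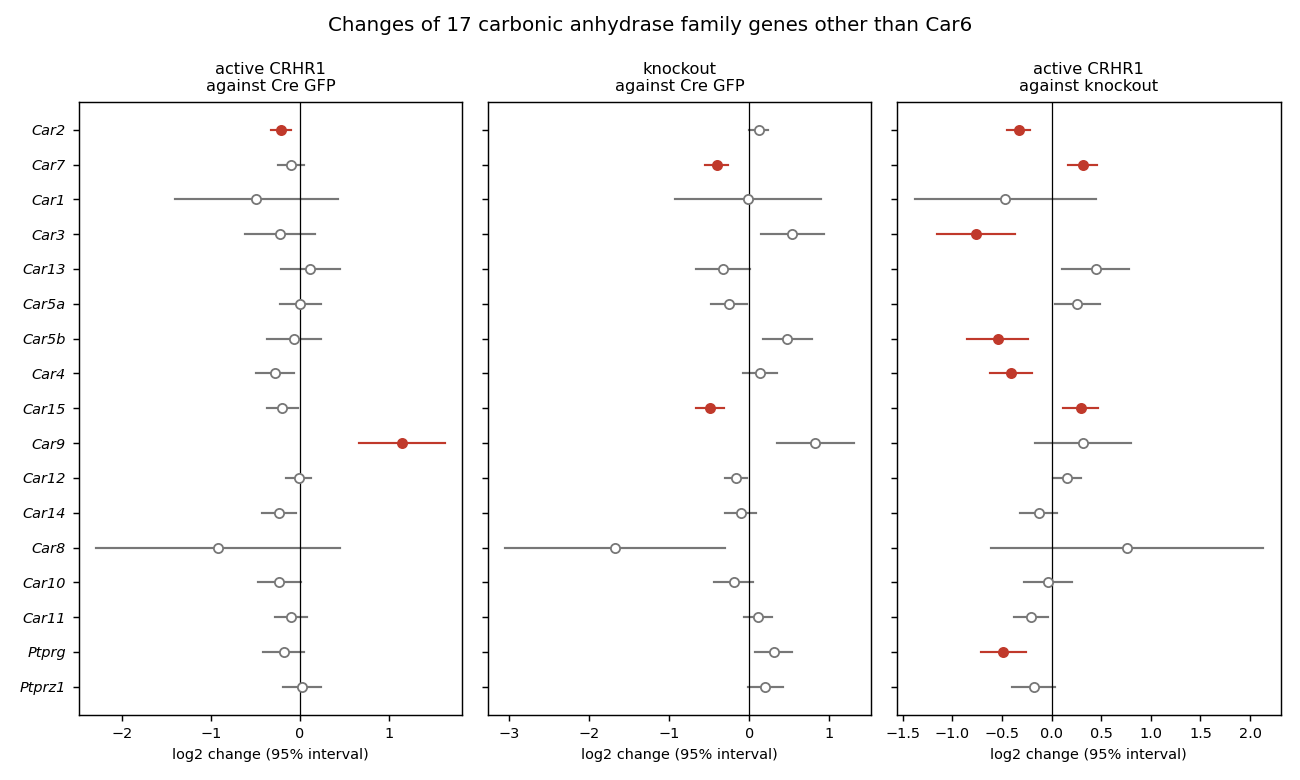
Log2 change (horizontal axis, 95% interval as a line) of 17 carbonic anhydrase family genes other than Car6 in the 3 comparisons. Filled red points passed limma at an adjusted p under 0.05 and open grey points did not, and each panel has its own scale. The filled points are Car9 at 1.14 and Car2 at -0.21 for active CRHR1 against Cre GFP, and Car7 at -0.41 and Car15 at -0.49 for knockout against Cre GFP, where the open point of Car8 lies further left at -1.68.

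The genes whose levels were most like those of Car6 were sought by their correlation, as a description. By Pearson r over the 15 arrays, among 17484 other genes with a symbol, the nearest were Trib3 (r = 0.986), Slc7a3 (0.986), C230029M16 (0.971), Ecel1 (0.964), Nlrc5 (0.954) and Cst7 (0.945). The arrays fall into 5 high and 10 low ones for Car6, a division that all these values share. Over the 10 knockout and Cre GFP arrays alone, where Car6 was at background, r was 0.780, 0.653, 0.474, 0.852, 0.520 and 0.183 in the same order.

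Trib3, a pseudokinase induced by ATF4 and CHOP, read 0.83, -0.02, 0.23, 0.24 and 0.21 with active CRHR1, -2.05, -2.14, -2.15, -2.22 and -2.43 in the knockout, and -2.09, -1.99, -1.51, -2.13 and -2.07 in Cre GFP. Slc7a3, a carrier of cationic amino acids, averaged 0.24 ± 0.15 with active CRHR1, -1.89 ± 0.16 in the knockout and -1.82 ± 0.24 in Cre GFP (SD, n = 5 each). Ecel1, an endopeptidase of injured neurons, averaged 0.21 ± 0.43 with active CRHR1, -2.07 ± 0.11 in the knockout and -1.58 ± 0.49 in Cre GFP. For each of these genes every active CRHR1 mouse lay above the 10 others.

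C230029M16, like Car6, was well above background in 5 of 5 active CRHR1 mice and in 0 mice of the knockout and Cre GFP groups. Nlrc5, the activator of class I antigen presentation genes, averaged 0.90 ± 0.85 with active CRHR1, -3.19 ± 0.80 in the knockout and -3.36 ± 0.60 in Cre GFP. Cst7, a cystatin of activated microglia and lymphocytes, averaged 2.10 ± 0.70 with active CRHR1, -2.72 ± 0.96 in the knockout and -3.32 ± 0.74 in Cre GFP. The genes thus chosen for their likeness to Car6 were high in the same 5 mice, which the choice itself sets.

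**Figure D3:**
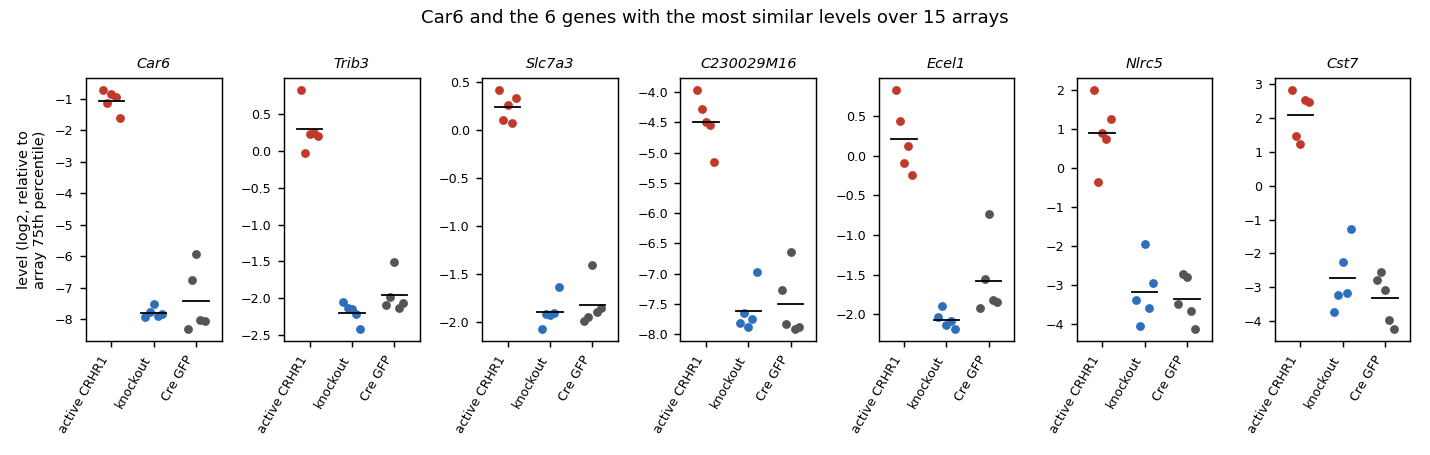
Levels (log2 signal relative to the array's 75th percentile, vertical axis, a separate scale per gene) of Car6 and the 6 genes with the highest Pearson r with it, in active CRHR1, knockout and Cre GFP mice. Points are single mice and lines are group means. In all 7 panels the 5 active CRHR1 mice lie above the 10 others.

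Genes that share a process with the carbonic anhydrases were taken as lists. Beside their counts, 3.9% of all genes were called higher and 4.56% lower with active CRHR1 against Cre GFP. In the knockout against Cre GFP 3.33% were called in either direction. Of 18 genes of CHOP and the integrated stress response, 6 rose and 0 fell with active CRHR1 against Cre GFP, with a list median of 0.20 against -0.06 for all genes. Trib3 rose by 2.26 ± 0.15 (adjusted p = 3.37e-06), Atf3, a stress-induced transcription factor, by 2.16 ± 0.27 (adjusted p = 0.000342), Cebpb, which pairs with CHOP, by 0.95 ± 0.12, and Chac1, which degrades glutathione, by 0.70 ± 0.12. Nupr1 and Sesn2 were the other two. Ddit3, which encodes CHOP itself, had levels of 2.03 ± 0.19 with active CRHR1, 1.76 ± 0.10 in the knockout and 1.82 ± 0.14 in Cre GFP (SD, n = 5 each), while its change against Cre GFP was 0.20 ± 0.09 (adjusted p = 0.181). In the knockout against Cre GFP 0 of the 18 passed in limma (0 higher and 1 lower at an unadjusted p under 0.05). On slide 2 alone Cebpb and Chac1 had like changes (0.96 and 0.68) but not the call (adjusted p = 0.0522 and 0.0642).

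Of 16 hypoxia response genes 3 rose and 0 fell with active CRHR1 against Cre GFP: Hk2, a hexokinase, by 1.06 ± 0.14 (adjusted p = 0.000599, and 0.0578 on slide 2 alone), Hmox1, heme oxygenase, by 0.54 ± 0.14 and the peptide gene Adm by 0.40 ± 0.11. Their list median was -0.03, and 3.9% of all genes were called higher in this comparison. The calls of Hmox1 and Adm ended with slide as a block and in 7 and 8 of the 15 omissions. In the knockout 0 of the 16 passed in limma, also at an unadjusted p under 0.05.

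The carriers that move the products of carbonic anhydrases were counted in the same way. The shares of all genes called were 8.45% with active CRHR1 and 3.33% in the knockout, each against Cre GFP. With active CRHR1 against the knockout the share was 25.7%. Of 17 bicarbonate transporters 0 passed in limma with active CRHR1 against Cre GFP (0 higher and 1 lower at an unadjusted p under 0.05; median -0.08), and in the knockout likewise 0 (2 higher and 2 lower at an unadjusted p under 0.05). Against the knockout 2 rose and 3 fell with active CRHR1, among those that fell the anion exchanger Slc4a2 by 0.28 ± 0.06 and the astrocytic cotransporter Slc4a4 by 0.38 ± 0.12, both calls that ended with slide as a block. Of 19 proton and lactate transporters 1 rose and 0 fell with active CRHR1 against Cre GFP (2 higher and 6 lower at an unadjusted p under 0.05), the riser being the lactate carrier Slc16a3 of glycolytic cells, by 0.79 ± 0.14 (adjusted p = 0.00383, and 0.124 on slide 2 alone). In the knockout Atp4a, a gastric proton pump subunit, rose by 0.73 ± 0.14, a call that ended with slide as a block, and 0 fell.

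Of 12 acid-sensing channels and receptors 2 rose and 2 fell with active CRHR1 against Cre GFP, beside 3.9% of all genes called higher and 4.56% lower. The risers were the proton-sensing receptor Gpr65 by 2.01 ± 0.36 (adjusted p = 0.00343, and 0.0752 on slide 2 alone) and its relative Gpr132 by 2.67 ± 0.37 (adjusted p = 0.000709), which are known from lymphocytes and myeloid cells. Those that fell were the acid-sensitive potassium channel Kcnk3 by 0.33 ± 0.09 and the acid-sensing sodium channel Asic2 by 0.34 ± 0.10, and these calls ended with slide as a block and in 8 and 11 of the 15 omissions. In the knockout Asic1 fell by 0.48 ± 0.07 (adjusted p = 0.00303, and 0.111 on slide 1 alone). Of 9 chloride transporters Slc12a7 rose by 0.66 ± 0.16 with active CRHR1 against Cre GFP, which did not hold with slide as a block, and of 12 genes of zinc transport, the metal of the enzymes' active site, Slc39a4 rose by 1.55 ± 0.23 (adjusted p = 0.00106). In the knockout 0 members of both lists passed in limma, with 0 chloride transporters and 4 zinc genes higher at an unadjusted p under 0.05.

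Immune cell markers were set beside these gene groups and Car6. With active CRHR1 against Cre GFP 3.9% of all genes were called higher and 4.56% lower. Of 14 microglia markers 9 rose and 1 fell with active CRHR1 against Cre GFP, and their summed signal was 201 to 252 with active CRHR1, 146 to 174 in the knockout and 137 to 173 in Cre GFP. Of 8 tested T cell markers 5 rose and 0 fell against Cre GFP, with a summed signal of 3.08 to 5.88 with active CRHR1, 3.21 to 4.37 in the knockout and 3.18 to 3.85 in Cre GFP, so that these ranges overlapped. Lck, Cd4 and Cd3e, on average the brightest of the 8, weighed most in this sum, and of these only Lck is among the 5 that rose. One of the 5, Cd3g, was well above background in 4 of 5 active CRHR1 mice, 3 of 5 knockouts and 1 of 5 Cre GFP mice and so passed the filter on dim probes through the active CRHR1 group alone. The other calls, Cd2, Cd3d, Cd5 and Lck, were lost on slide 2 alone (adjusted p from 0.0987 to 0.179), and those of Cd2 and Lck also with slide as a block. Of 10 monocyte and neutrophil markers 3 rose and 0 fell with active CRHR1 against Cre GFP. Their summed signal was 4.12 to 7.59 with active CRHR1, 4.00 to 14.2 in the knockout and 2.72 to 4.26 in Cre GFP. The sum thus reached its highest value in the knockout, while the 3 called genes, Plac8, Lyz2 and Ccr2, averaged highest with active CRHR1. Ccr2 passed the filter through the active CRHR1 group alone (well above background in 4, 3 and 0 of 5 active CRHR1, knockout and Cre GFP mice). In the knockout against Cre GFP 0 of the 10 passed in limma (7 higher and 0 lower at an unadjusted p under 0.05, median 0.90). The part of these immune markers in the changes of Car6, Gpr65, Gpr132, Slc16a3 and the stress genes was not tested.

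Serous gland markers were set beside Car6 because saliva is its known source. Of 21 on the array 7 were above background in 0 of the 15 mice, among them Pip, Smr3a, Prol1, Muc19 and the odorant-binding protein gene Obp2a. The summed signal of the 21 was 5.18 to 6.25 with active CRHR1, 3.04 to 4.63 in the knockout and 3.63 to 5.32 in Cre GFP. Signals were summed on the linear scale, where Amy1, the brightest of the tested markers, weighed most. Of 8 tested, 1 rose and 0 fell with active CRHR1 against Cre GFP: Lyz1, by 1.16 ± 0.29 (adjusted p = 0.0251), a lysozyme gene with a close copy, Lyz2, of microglia and macrophages that its probe may also bind. Against the knockout 2 of the 8 rose and 1 fell with active CRHR1, beside 9.43% of all genes called higher and 16.3% lower. Scgb1a1, an airway secretoglobin, fell by 0.72 ± 0.12 (adjusted p = 0.00124), and Bhlha15, a transcription factor of secretory cells, rose but passed the filter through the active CRHR1 group alone (well above background in 4, 0 and 1 of 5 active CRHR1, knockout and Cre GFP mice). Amy1, the salivary amylase, averaged 2.07 ± 0.17 with active CRHR1, 1.34 ± 0.43 in the knockout and 1.64 ± 0.38 in Cre GFP, and it rose by 0.73 ± 0.20 with active CRHR1 against the knockout (adjusted p = 0.0209). Its change against Cre GFP was 0.43 ± 0.20 (adjusted p = 0.192). The calls of Lyz1 against Cre GFP and of these 3 genes against the knockout ended with slide as a block. The part of such tissue in the Car6 result was not tested.

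**Figure D4:**
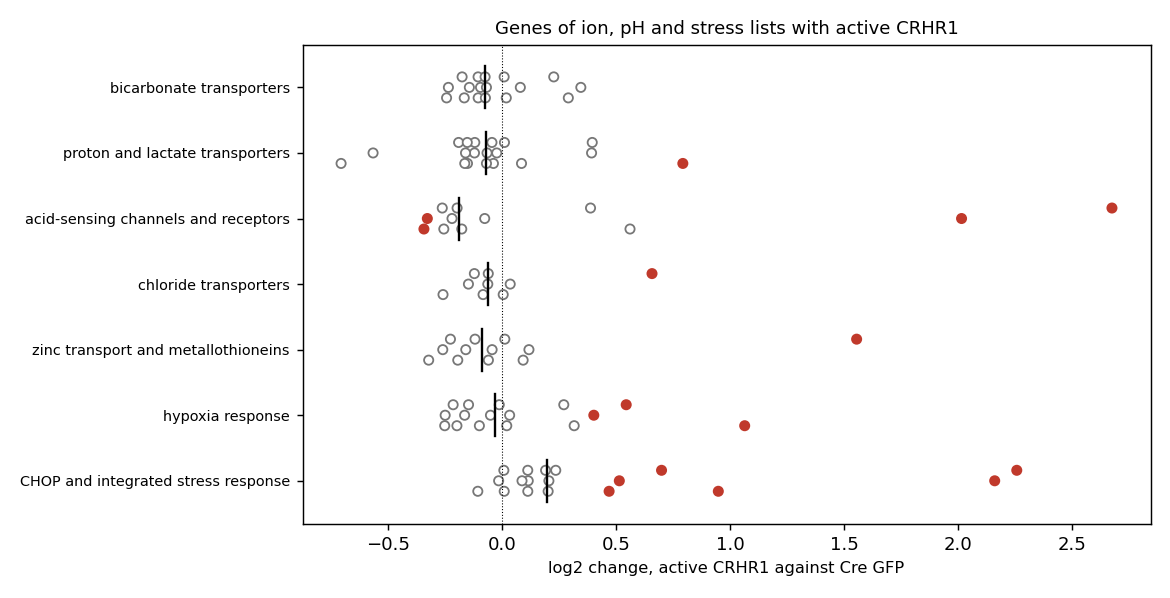
Log2 change with active CRHR1 against Cre GFP (horizontal axis) of every tested gene in 7 lists related to carbonic anhydrase function or to the known inducers of Car6 and Car9. Filled red points passed limma at an adjusted p under 0.05, open points did not, and vertical bars are list medians. The bicarbonate transporters hold 0 filled points and the CHOP and integrated stress response list 6, all to the right.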

How the data were processed

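Total RNA was extracted with TRIzol, treated with DNase I and 100 ng labelled with Cy3, per the labels' protocols. The deposited scanner files hold an intensity per spot, made with Agilent Feature Extraction 10.7.3.1 and, per the file headers, background-subtracted and detrended within each array, with surrogate values for dim spots and no scaling between arrays. Detection, outlier and saturation flags, other columns of the deposited files, were set by that program, per the file headers. The authors' series values proved to be that intensity divided by the array's median over 59305 non-control spots; they are linear, and column medians were 0.899 to 0.935.

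Control and outlier spots were left out; 0 were saturated. The log2 of the processed intensity minus the array's 75th percentile was averaged per probe. Probes well above background on at least 4 of 5 arrays of any group were kept (33968 of 55681), and the kept probe with the highest mean stood for a gene. Names came from RefSeq by accession (27509 probes matched, 2017 symbols changed), otherwise from the array design. All 9 members passed this filter, Car6 through the active CRHR1 group alone. The 3 comparisons were fitted over 15 arrays with limma 3.58.1 (lmFit, eBayes) in R 4.3.3; the threshold was a Benjamini-Hochberg adjusted p under 0.05. The labels give 5 separate mice per group, and their number limits the precision. The steps were tested on simulated data.

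Named were the 9 members with all their probes, the other family genes, Crhr1 and Crh, up to 4 genes of smallest p per list among those past the threshold, and the 6 genes most like Car6. Ddit3, Nupr1, Sesn2, Cd3g, Cd3e, Cd4 and the serous markers at background fall outside this rule and were named after their values were seen. The members and lists were chosen with earlier results of these data known. Same-numbered samples of 2 groups had correlations of their deviations from -0.22 to 0.41, so the numbers do not pair the mice. One gene that this rule names is not reported here.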

Additional observations from a re-analysis of the deposited data

How the results depend on the processing

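Alternatives were slide as a block, the slide that holds both groups, quantile normalization, normexp (offset 50), the authors' scaled values, median centring, no filter and a filter on all 15 arrays, the mean over probes, only the groups compared, the replicate block, each mouse left out, and, chosen after seeing the data, knockout mice 2 and 5 left out together. Causes were not tested.

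For active CRHR1 against Cre GFP, the 1 called member (Car2) became 0 with the slide block, within slide 2, with quantile normalization, the authors' values, no filter and the replicate block. All genes called were 2321, and 1012 with the slide block, 329 within slide 2, 1266 in the authors' values and 1225 without a filter. For the knockout against Cre GFP, the 1 called member (Car7) became 0 within slide 1. All genes called were 915, and 385 with the slide block, 115 within slide 1, 1409 with quantile normalization, 1376 with normexp, 453 in the authors' values, 389 without a filter, 494 with only the groups compared and 332 without knockout mice 2 and 5. For active CRHR1 against the knockout, the 3 called members became 0 with the slide block and 2 without knockout mice 2 and 5. They became 2 in the authors' values and 4 with quantile normalization, normexp and median centring, so that a member beyond Car2, Car4 and Car7 passed there. All genes called were 7054, and 681 with the slide block, 4349 in the authors' values and 3047 without those mice. These groups share no slide. The fitted Car6 change against the knockout was 6.74, and 7.78 with the slide block; with normexp it was 2.82, and 2.89 against Cre GFP.

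Leaving out single mice gave 0 to 1, 1 to 1 and 3 to 4 called members for active CRHR1 against Cre GFP, knockout against Cre GFP and active CRHR1 against knockout, and 1182 to 3617, 431 to 957 and 4162 to 7958 genes. The first count was 3617 without Cre GFP mouse 1, 1440 without 3, 1221 without 5, and 1182 and 1394 without active CRHR1 mouse 1 and 5. The second was 549 and 463 without knockout mouse 2 and 4, and 469 and 431 without Cre GFP mouse 3 and 4. The third was 4162 without knockout mouse 4, and 4199 and 4234 without active CRHR1 mouse 1 and 5. The Car6 change ran from 6.13 to 6.72 against Cre GFP and from 6.66 to 6.87 against the knockout.

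With the replicate block, though the numbers do not pair the mice, all genes called were 1517, 560 and 6026, called members 0, 1 and 3, and the Car6 changes 6.35 and 6.74.

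Among single genes the mean over probes turned Mbp in the knockout against Cre GFP to -0.014 (main 0.41). This was the only change of sign among the named genes where the main or the alternative fit passed the threshold. Changes that passed in neither fit could also turn, such as Car12 with active CRHR1 against Cre GFP (main -0.01, and 0.06 with quantile normalization). The share of higher calls moved in the authors' values to 33.6% for the knockout against Cre GFP (main 58.7%) and to 48.0% for active CRHR1 against the knockout (main 36.7%). Dim probes such as Car6, Car8 and Car9 have the least certain sizes.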

Other observations

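Cre GFP mouse 3 had the highest level of its group for 5 of the 7 genes in the plot of Car6 and the genes most like it. Its levels were -5.93 for Car6, -1.51 for Trib3, -1.40 for Slc7a3, -6.64 for C230029M16 and -0.74 for Ecel1, against group medians of -8.02, -2.07, -1.89, -7.83 and -1.82. For Car6 and C230029M16 the signal of this mouse was still not well above background. The other two genes, Nlrc5 and Cst7, read -2.81 and -3.07 in this mouse and were not at the top of the group. None of these levels reached those of the active CRHR1 mice, and the pattern was noticed in the data and has no test. Car6 is among the 5, and the others were chosen for their likeness to Car6 over arrays that include this mouse, which favours such a pattern.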
